A study of Drosophila melanogaster with 19 samples.

Results

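Transcript levels of 10 heat shock protein genes were described in Drosophila S2R+ cells after RNA interference (RNAi) against subunits of the dREAM complex. The genes were 4 small heat shock proteins (Hsp22, Hsp23, Hsp26 and Hsp27), the inducible Hsp70-class gene Hsp68, the Hsp90 gene Hsp83, the constitutive Hsp70 cognates Hsc70-3, Hsc70-4 and Hsc70-5, and the heat shock transcription factor gene Hsf. They were taken by name from the 15021 genes of the table, as the summed FPKM of each gene's annotated transcripts, new isoforms and other overlapping transcripts, and all 10 were found. FPKM are fragments scaled to transcript length and to library size, so levels can be set side by side between genes. S2R+ is an embryo-derived line with features of blood cells, and every culture was kept at 25 °C and received dsRNA daily over 4 days, at 30 µg/ml and then 10 µg/ml once serum was back. RNA came from cells given dsRNA against mip40 (2 libraries), mip120 (2 libraries), mip130 (2 libraries) or E2F2 (1 library), and from control cells given dsRNA against GFP (2 libraries), a sequence that flies lack. By the labels all 5 groups are cultures of the same line that differ in the dsRNA they received. The labels do not say whether replicates were separate cultures.

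Heat shock proteins are chaperones, which hold or refold other proteins. Small heat shock proteins bind unfolding proteins and keep them from clumping, members of the Hsp70 class fold them in cycles driven by ATP, and Hsp90 acts late on signalling proteins such as kinases and receptors. Hsf is the transcription factor that switches the inducible genes on when cells are heated, whereas the cognates are made in unstressed cells, each for its own compartment. dREAM is a complex of RB-family proteins, E2F2 with its partner Dp, Myb and the Mip proteins, and it is known mainly for holding genes silent.

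The targeted transcripts stood at 3.96% of the GFP mean for mip40, 59.6% for mip120, 16.4% for mip130 and 9.45% for E2f2, each in the cells given its own dsRNA. The FPKM of a library summed to 618451 to 774009 over all rows and to 588531 to 688463 over the classes used here. The most abundant unannotated transcript held 2.52% to 16.1% of a library. In each library 7350 to 7608 genes reached 1 FPKM. Read depth is unknown, because the table holds no counts. Of 12 hemocyte markers 11 were in the table, 8 of them at 1 FPKM or more in every library, and Hml stayed under 1 FPKM in every library. Their summed level was 358 to 365 FPKM in mip40 cells, 322 to 327 FPKM in mip120 cells, 358 to 369 FPKM in mip130 cells, 387 FPKM in E2F2 cells and 359 to 372 FPKM in GFP cells. The largest parts of this sum were crq and srp, and single markers moved within it. Pxn had 10.6 and 9.58 FPKM in GFP cells and 20.3 to 42.5 FPKM in the RNAi libraries. Cg25C had 18.5 and 21.7 FPKM in GFP cells and 10.4 and 9.84 FPKM in mip120 cells. Of the neuron markers, elav had 23.4 to 40.6 FPKM over the libraries and Syt1 at most 0.112 FPKM. The 3 germ cell markers vas, nos and bam summed to 16.2 and 19.1 FPKM in mip40 cells, 19.1 and 19.4 FPKM in mip120 cells, 32.6 and 36.2 FPKM in mip130 cells and 10.4 FPKM in the E2F2 library, against 1.81 and 1.87 FPKM in GFP cells, and the part of these levels in the results below was not tested. The sums hide differences between the markers. In the E2F2 library bam had 1.33 FPKM, against 1.43 and 1.43 FPKM in GFP cells, while vas (6.48 FPKM) and nos (2.64 FPKM) stood above GFP cells. In mip40 cells vas stayed low, at 0.260 and 0.441 FPKM, against 0.114 and 0.0261 FPKM in GFP cells.

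Against GFP, the heat shock protein genes moved in different directions within the same cells. In mip120 cells Hsp22 and Hsc70-3 rose while Hsp27, Hsp68 and Hsp83 fell. In mip130 cells Hsp22 rose while Hsp27 and Hsp68 fell, and in mip40 cells Hsp27 and Hsp68 fell. Hsp26 was also called higher in mip120 and mip130 cells, but it was tested only because of its values there, so those calls were fixed. No member passed the test in the E2F2 library. Calls are limma's adjusted p under 0.05 over 7835 tested genes, on log2(FPKM + 1), a scale that understates the changes of genes with low values. In bulk RNA, fewer cells that express a gene and less of its RNA per cell cannot be told apart.

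The number of members called is to be read against the share of all tested genes called. Hsp26 entered the test only through the mip120 and mip130 libraries, so its calls were fixed, and counts are given over the 9 other members as well. In mip40 cells 0 members rose and 2 fell, where 5.69% of tested genes rose and 3.51% fell. In mip120 cells 3 members rose and 3 fell (2 and 3 of the 9 without Hsp26), where 17.6% of tested genes rose and 18.9% fell. In mip130 cells 2 members rose and 2 fell (1 and 2 of the 9 without Hsp26), where 19.3% of tested genes rose and 16.9% fell. In the E2F2 library 0 members rose and 0 fell by limma's adjusted p, where 9.28% of tested genes rose and 2.72% fell. At an unadjusted p under 0.05 there were 4 members (Hsp23, Hsc70-3, Hsc70-5 and Hsf) and 30.6% of all tested genes. That E2F2 background was 727 genes higher and 213 lower, and became 421 and 269 with quantile normalization and 487 and 296 with median-ratio scaling. The 4 comparisons share the same 2 GFP libraries.

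**Figure D1:**
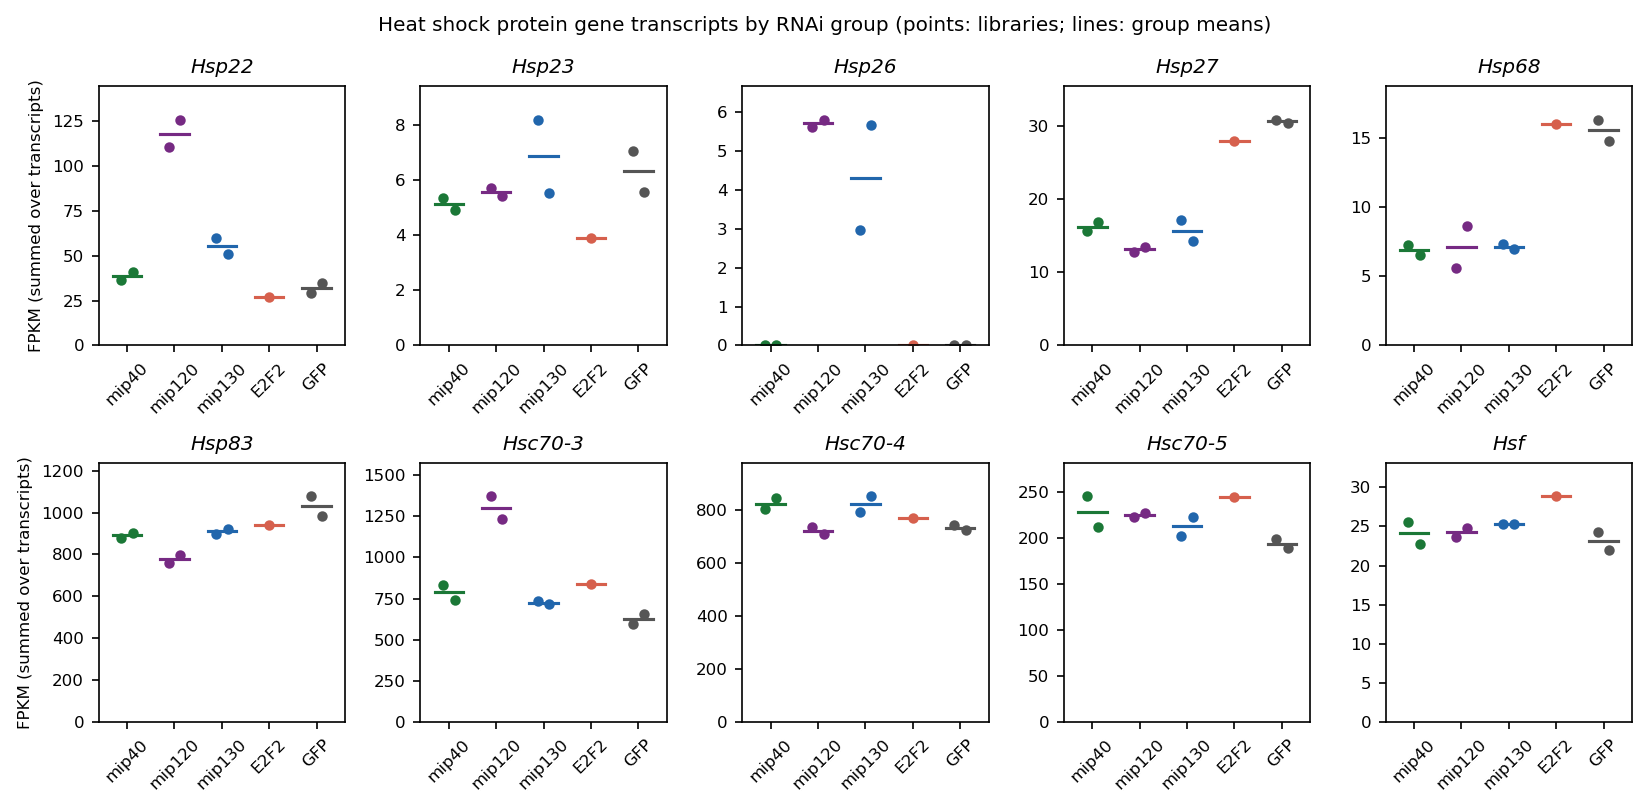
Summed FPKM of each of the 10 heat shock protein genes (vertical axes, linear, each from 0) by RNAi group (horizontal axis). Points are libraries and lines are group means. Hsp22 and Hsc70-3 stand highest in the 2 mip120 libraries, Hsp27 and Hsp68 lie lower in the 6 mip libraries than in the E2F2 and GFP libraries, and Hsp26 is listed at 0 in 5 of the 9 libraries.

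In GFP cells the members spanned more than 2 orders of magnitude. Hsp83 stood highest at 1078 and 982 FPKM, followed by Hsc70-4 at 745 and 726 FPKM, Hsc70-3 at 596 and 657 FPKM, and Hsc70-5 at 199 and 189 FPKM. The inducible and small genes and the factor gene lay far lower, with Hsp22 at 29.4 and 35.1 FPKM, Hsp27 at 30.9 and 30.5 FPKM, Hsf at 24.3 and 22.0 FPKM, Hsp68 at 16.3 and 14.8 FPKM and Hsp23 at 7.07 and 5.59 FPKM. Hsp26 was listed at 0 in both. Hsp22 and Hsp27 overlapped and were the only neighbours in this order that did so. The order of the abundant members changed in mip120 cells, where Hsc70-3 at 1372 and 1231 FPKM stood above Hsp83 at 759.9 and 798 FPKM.

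Hsp22 encodes the small heat shock protein of mitochondria. It had 36.7 and 40.9 FPKM in mip40 cells, 110.6 and 125.9 FPKM in mip120 cells, 59.96 and 50.9 FPKM in mip130 cells and 27.0 FPKM in the E2F2 library, against 29.4 and 35.1 FPKM in GFP cells. The mip120 libraries lay above all others and the mip130 libraries above all the rest. In mip120 cells the rise was 3.59-fold (log2 change 1.85 ± 0.12 SE, adjusted p = 0.000128 by limma), and in mip130 cells it was 1.70-fold (log2 change 0.76 ± 0.12 SE, adjusted p = 0.00478 by limma). The differences in mip40 cells (log2 0.26, adjusted p = 0.242 by limma) and in the E2F2 library (log2 -0.24, adjusted p = 0.323 by limma) did not pass.

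Almost all of Hsp22 came from 1 transcript, whose first exon runs from 9367097 to 9368064 on the forward strand of chromosome 3L in the table's own positions (whose genome build the labels do not state). It stood at 36.6 and 39.1 FPKM in mip40 cells, 109.8 and 125.9 FPKM in mip120 cells, 59.6 and 49.1 FPKM in mip130 cells and 25.6 FPKM in the E2F2 library, against 29.4 and 35.0 FPKM in GFP cells. Transcripts that start 1066 bp upstream, at 9366031, summed to at most 1.83 FPKM in a library. The upstream transcripts begin 209 bp from the start of Hsp67Bb, another small heat shock protein gene on the same strand, so reads there can be split between the genes. Hsp67Bb itself reached at most 1.35 FPKM.

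Hsp26, a cytosolic small heat shock protein, was listed at 0 in every library but those of mip120 and mip130. It had 0 and 0 FPKM in mip40 cells, 5.62 and 5.81 FPKM in mip120 cells, 2.96 and 5.67 FPKM in mip130 cells and 0 FPKM in the E2F2 library, against 0 and 0 FPKM in GFP cells. The 4 libraries in which it was detected shared no value with the 5 others. It entered the test only through the groups in which it was high, so it had to differ from the rest. Its values are therefore a description with no p, and no fold is given against libraries listed at 0. Whether an exact 0 is a failed estimate or a silent gene cannot be told from these values and was not tested. Of 6037 genes at 10 FPKM or more in some library, 185 were listed at 0 in another, and 0 of 84 ribosomal protein genes were. Hsp26, at 5.81 FPKM at most, is not among the 6037. Hsp26 has 1 transcript, from 9369518 to 9370475 on the reverse strand of 3L, between CG4461 and Hsp67Ba, which stood at no more than 1.12 FPKM in any library.

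Hsp27, a small heat shock protein found largely in the nucleus, fell in all 3 mip groups. It had 15.6 and 16.9 FPKM in mip40 cells, 12.8 and 13.5 FPKM in mip120 cells, 17.2 and 14.3 FPKM in mip130 cells and 27.9 FPKM in the E2F2 library, against 30.9 and 30.5 FPKM in GFP cells. All 6 mip libraries lay below the E2F2 and GFP libraries. The fall was 1.84-fold in mip40 cells (log2 change -0.88 ± 0.09 SE, adjusted p = 0.00243 by limma), 2.24-fold in mip120 cells (-1.16 ± 0.09 SE, 0.000257) and 1.90-fold in mip130 cells (-0.93 ± 0.09 SE, 0.000832). In the E2F2 library the difference was -0.13 on the log2 scale, with an interval from -0.41 to 0.14 (95%, limma).

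Hsp23, the remaining cytosolic small heat shock protein, starts 2181 bp from Hsp27 on the same strand and passed in no comparison. It had 5.37 and 4.92 FPKM in mip40 cells, 5.73 and 5.44 FPKM in mip120 cells, 8.21 and 5.54 FPKM in mip130 cells and 3.90 FPKM in the E2F2 library, against 7.07 and 5.59 FPKM in GFP cells. The mip120 and mip130 libraries overlapped with GFP, and the E2F2 library was the lowest of the 9 (log2 -0.57 ± 0.21 SE against GFP, adjusted p = 0.128 by limma). Its 2 listed transcripts share a start, and their split varied between replicates from 0.896% to 57.6% for the shorter one in GFP cells, so only the sum is used. The 4 small genes together summed to 57.7 and 62.7 FPKM in mip40 cells, 134.8 and 150.7 FPKM in mip120 cells, 88.3 and 76.4 FPKM in mip130 cells and 58.8 FPKM in the E2F2 library, against 67.3 and 71.2 FPKM in GFP cells. Hsp22 held the largest share of this total in all 6 mip libraries and in GFP replicate 2, and Hsp27 in the E2F2 library and GFP replicate 1.

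Hsp68 encodes an inducible member of the Hsp70 class. It had 7.30 and 6.55 FPKM in mip40 cells, 5.63 and 8.66 FPKM in mip120 cells, 7.34 and 6.96 FPKM in mip130 cells and 16.0 FPKM in the E2F2 library, against 16.3 and 14.8 FPKM in GFP cells. As for Hsp27, the 6 mip libraries lay below the other 3 without overlap. The fall was 2.09-fold in mip40 cells (log2 change -1.06 ± 0.17 SE, adjusted p = 0.0128 by limma), 2.07-fold in mip120 cells (-1.05 ± 0.17 SE, 0.00399) and 2.03-fold in mip130 cells (-1.02 ± 0.17 SE, 0.00513). The mip40 call was lost when either mip40 library or either GFP library was left out, with adjusted p from 0.0589 to 0.0793 by limma and log2 changes from -1.13 to -0.99. In the E2F2 library the log2 difference was 0.04, with an interval from -0.45 to 0.53 (95%, limma).

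Hsp83 encodes the Hsp90 of the fly's cytosol. It had 881 and 902 FPKM in mip40 cells, 759.9 and 798 FPKM in mip120 cells, 898 and 922 FPKM in mip130 cells and 942 FPKM in the E2F2 library, against 1078 and 982 FPKM in GFP cells. The mip120 libraries were the lowest of the 9 and the GFP libraries the highest. The fall in mip120 cells was 1.32-fold (log2 change -0.40 ± 0.08 SE, adjusted p = 0.00780 by limma). The differences in mip40 cells (log2 -0.21, adjusted p = 0.151), mip130 cells (-0.18, 0.113) and the E2F2 library (-0.13, 0.402) did not pass in limma. Under quantile normalization the mip130 difference passed (log2 -0.31, adjusted p = 0.0383 by limma).

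The Hsp83 value of the E2F2 library depends on which transcripts are summed. A new isoform of Hsp83, starting 496 bp downstream of the most upstream start, was listed at 110.2 and 0 FPKM in mip40 cells and 456 FPKM in the E2F2 library, and at no more than 0.0300 FPKM in any mip120, mip130 or GFP library. Without it Hsp83 had 771 and 902 FPKM in mip40 cells and 485 FPKM in the E2F2 library, against 1078 and 982 FPKM in GFP cells. With annotated transcripts alone the E2F2 difference from GFP was -1.08 on the log2 scale and passed (adjusted p = 0.00644 by limma). Between the mip40 replicates the new isoform differed (110.2 and 0 FPKM) while the full sum stood at 881 and 902 FPKM. The first exon of the new isoform is listed as only 3193465 to 3193473. The E2F2 group has 1 library and so no replicate of its own, and which listing holds there was not tested.

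**Figure D2:**
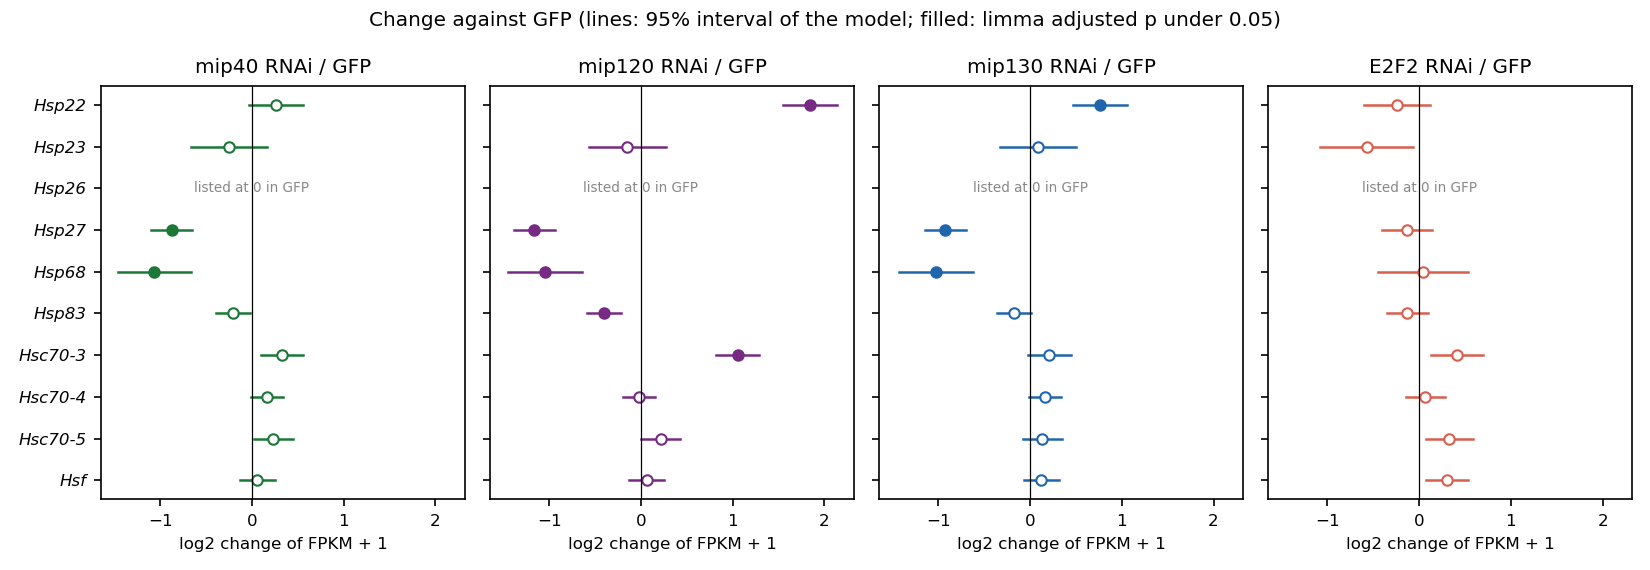
Log2 change of FPKM + 1 against GFP (horizontal axes) for each heat shock protein gene (rows) in mip40, mip120, mip130 and E2F2 cells (panels, left to right). Lines are 95% intervals of the limma model and filled points have an adjusted p under 0.05; Hsp26 is left out because it is listed at 0 in GFP cells. Hsp27 and Hsp68 lie left of 0 in all 3 mip panels, Hsp22 and Hsc70-3 reach 1.85 and 1.05 in mip120 cells, and no point is filled in the E2F2 panel.

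Hsc70-3 encodes the Hsp70 of the endoplasmic reticulum (ER), the fly counterpart of mammalian BiP. It had 835 and 741 FPKM in mip40 cells, 1372 and 1231 FPKM in mip120 cells, 735 and 715 FPKM in mip130 cells and 836 FPKM in the E2F2 library, against 596 and 657 FPKM in GFP cells. Every RNAi library lay above both GFP libraries, and the mip120 libraries lay far above the rest. The rise in mip120 cells was 2.07-fold (log2 change 1.05 ± 0.10 SE, adjusted p = 0.000434 by limma). The differences in mip40 cells (log2 0.33, adjusted p = 0.0868), mip130 cells (0.21, 0.132) and the E2F2 library (0.42, 0.0688) did not pass in limma.

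Within Hsc70-3, the high level in mip120 cells lay in 1 of the 3 transcript starts. The most upstream start, at 11701212 on the reverse strand of chromosome X, had 397 and 338 FPKM in mip40 cells, 1095 and 1063 FPKM in mip120 cells, 474 and 425 FPKM in mip130 cells and 277 FPKM in the E2F2 library, against 229 and 289 FPKM in GFP cells. The transcripts from the other starts, 818 and 1819 bp downstream, together had 438 and 403 FPKM in mip40 cells, 277 and 169 FPKM in mip120 cells, 261 and 289.6 FPKM in mip130 cells and 559.7 FPKM in the E2F2 library, against 367 and 369 FPKM in GFP cells. The upstream start thus held 79.8% and 86.3% of the gene in mip120 cells, 64.4% and 59.5% in mip130 cells, 47.6% and 45.6% in mip40 cells and 33.1% in the E2F2 library, against 38.5% and 43.9% in GFP cells. The shares of all 3 mip groups lay above those of GFP cells, and the E2F2 share lay below them. The split between transcripts that overlap is an estimate of the authors' software, and it was not tested.

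**Figure D3:**
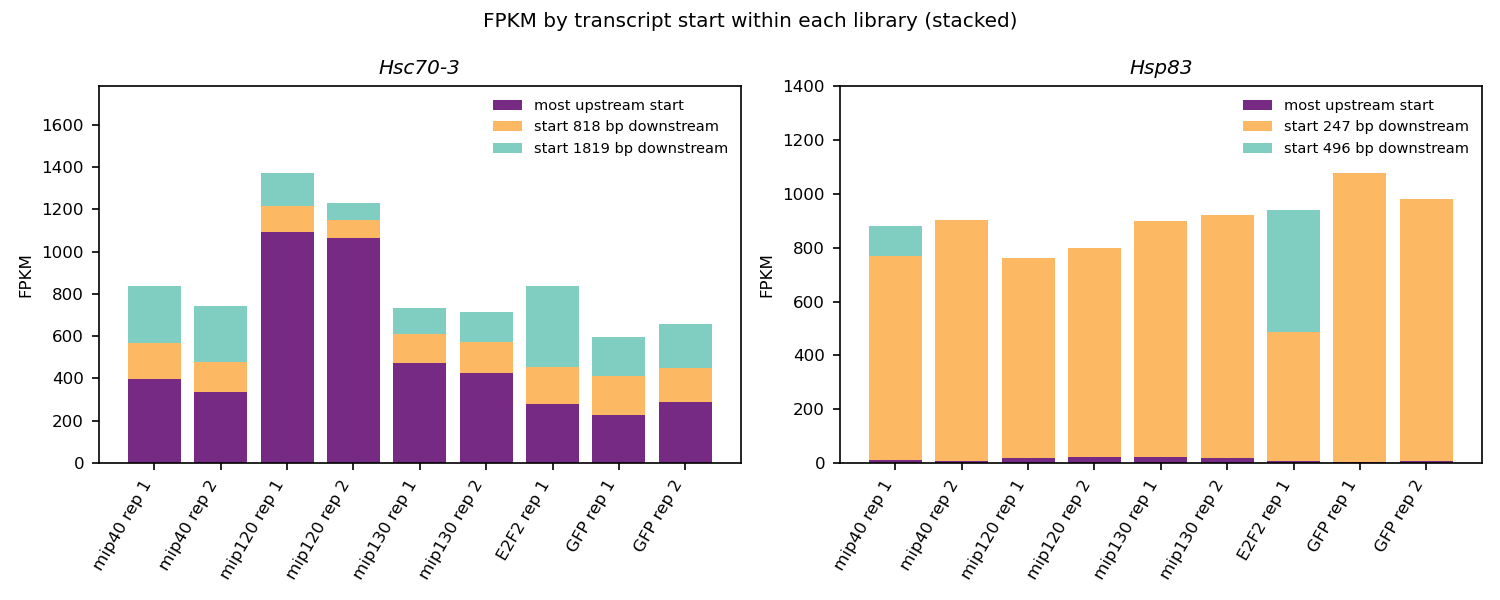
FPKM of Hsc70-3 (left) and Hsp83 (right), stacked by transcript start within each library (horizontal axis, grouped by RNAi target, GFP last). The most upstream start of Hsc70-3 reaches 1095 and 1063 FPKM in mip120 cells while the other starts are low there, and the Hsp83 start 496 bp downstream appears in 1 mip40 library and in the E2F2 library.

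Hsc70-4, the main cytosolic cognate, and Hsc70-5, the mitochondrial one, passed in no comparison. Hsc70-4 had 806 and 847 FPKM in mip40 cells, 736 and 710.5 FPKM in mip120 cells, 794 and 853 FPKM in mip130 cells and 771 FPKM in the E2F2 library, against 745 and 726 FPKM in GFP cells. Its log2 differences from GFP ran from -0.02 to 0.17, and the widest of the 4 intervals, that of the E2F2 library, ran from -0.14 to 0.28 (95%, limma). Hsc70-5 had 245 and 212 FPKM in mip40 cells, 223 and 228 FPKM in mip120 cells, 203 and 223 FPKM in mip130 cells and 244 FPKM in the E2F2 library, against 199 and 189 FPKM in GFP cells. All 7 RNAi libraries lay above both GFP libraries, with log2 differences from 0.13 to 0.33. In mip120 cells the Hsc70-5 difference (0.22, adjusted p = 0.0992 by limma) passed under quantile normalization (0.0259) and median-ratio scaling (0.0397).

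Hsf, the gene of the factor that drives the inducible genes, had 25.6 and 22.7 FPKM in mip40 cells, 23.6 and 24.9 FPKM in mip120 cells, 25.3 and 25.3 FPKM in mip130 cells and 28.8 FPKM in the E2F2 library, against 24.3 and 22.0 FPKM in GFP cells. The mip40 and mip120 libraries overlapped with GFP, and the E2F2 library was the highest of the 9 (log2 0.31 ± 0.10 SE, adjusted p = 0.0889 by limma). The intervals against GFP ran from -0.13 to 0.25 in mip40 cells, from -0.13 to 0.25 in mip120 cells and from -0.07 to 0.31 in mip130 cells (95%, limma). Transcript levels do not show the activity of the factor, which is known to be set largely by the assembly of Hsf into trimers.

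The RNAi groups were also compared with one another, since a call in 1 group and not in another is no test of their difference. Between mip120 and mip40 cells 3 members differed (2 of the 9 without Hsp26), where 25.5% of tested genes did. Hsp22 was 3.00-fold higher in mip120 cells than in mip40 cells (log2 1.58 ± 0.12 SE, adjusted p = 0.000647 by limma), Hsc70-3 was 1.65-fold higher (0.72 ± 0.10 SE, 0.00444), and Hsp26, whose call was fixed, was listed at 0 in mip40 cells. The lower Hsp27 of mip120 cells did not pass against mip40 cells (log2 -0.29, adjusted p = 0.0668 by limma), and passed without mip130 replicate 1 (0.0390) or mip130 replicate 2 (0.0390).

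Between mip130 and mip40 cells 2 members differed (1 of the 9 without Hsp26), where 25.0% of tested genes did. Hsp22 was 1.42-fold higher in mip130 cells (log2 0.50 ± 0.12 SE, adjusted p = 0.0303 by limma), and this call was lost when either mip130 library or either mip40 library was left out, with adjusted p up to 0.135. Between mip130 and mip120 cells 2 members differed, where 8.32% of tested genes did. Hsp22 was 2.12-fold lower in mip130 cells than in mip120 cells (log2 -1.08 ± 0.12 SE, adjusted p = 0.00684 by limma) and Hsc70-3 was 1.79-fold lower (-0.84 ± 0.10 SE, 0.00707). The Hsp22 call was lost without mip120 replicate 2 (0.0548) or mip130 replicate 2 (0.0555), and the Hsc70-3 call without mip120 replicate 1 (0.0624) or mip130 replicate 2 (0.0738). With all libraries Hsp27 and Hsp68 passed in none of these 3 comparisons, and for Hsp68 the log2 differences were 0.02 to 0.04 with intervals within -0.39 and 0.44 (95%, limma).

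The E2F2 library was set against the mean of the 3 mip groups, where 4 members differed (3 of the 9 without Hsp26) and 29.2% of tested genes did. Hsp27 was 1.81-fold higher in the E2F2 library than in the mip groups (log2 0.86 ± 0.10 SE, adjusted p = 0.00251 by limma) and Hsp68 was 2.12-fold higher (1.08 ± 0.18 SE, 0.00759). Hsp22 was 2.30-fold lower in the E2F2 library than that mean (log2 -1.20 ± 0.13 SE, adjusted p = 0.00204 by limma). The mip groups differed among themselves in Hsp22, so their mean does not stand for each of them. It had 27.0 FPKM in the E2F2 library, 36.7 and 40.9 FPKM in mip40 cells and 59.96 and 50.9 FPKM in mip130 cells. In mip120 cells it had 110.6 and 125.9 FPKM. The E2F2 library was not tested against single mip groups. Hsp26 was listed at 0 in the E2F2 library, as in mip40 cells, and its call was fixed by the filter. The Hsp83 difference was 0.13 on the log2 scale and did not pass (adjusted p = 0.259 by limma), while with annotated transcripts alone it was -0.79 and passed (0.00497). The E2F2 values rest on 1 library whose spread is borrowed from the other groups.

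The genes next to the members moved with them in some places and not in others. Of 19 neighbouring genes 14 were tested. Hsp68 lies at 19880802 to 19883032 on the reverse strand of chromosome 3R, between CG6000 and SMC1, which encodes a cohesin subunit and starts 992 bp away. SMC1 had 54.6 and 54.9 FPKM in mip40 cells, 42.3 and 44.2 FPKM in mip120 cells, 47.4 and 46.0 FPKM in mip130 cells and 62.4 FPKM in the E2F2 library, against 57.3 and 58.3 FPKM in GFP cells. It fell with Hsp68 in mip120 cells (log2 -0.41, adjusted p = 0.00176 by limma) and in mip130 cells (-0.30, 0.00670), and in mip40 cells its difference was -0.08 and did not pass (0.430). CG6000, on the opposite strand, rose in mip120 cells (log2 0.38, adjusted p = 0.0240 by limma), in mip130 cells (0.47, 0.0122) and in the E2F2 library (0.49, 0.0487). The CG6000 calls were the less stable: the mip120 call was lost without mip120 replicate 2 or GFP replicate 1 (adjusted p up to 0.137 by limma), the mip130 call without mip130 replicate 2 or GFP replicate 1 (up to 0.0714), and the E2F2 call in 16 of 19 alternatives, every left-out library among them.

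CG4080, the neighbour of Hsp27 at 15181 bp, fell in mip120 cells (log2 -0.32, adjusted p = 0.0268 by limma), a call lost when any mip120 or GFP library was left out (up to 0.136), and did not pass in mip130 cells (-0.01, 0.938) or mip40 cells (-0.03, 0.858). CG14966, on the opposite strand beyond Hsp83, fell in all 4 RNAi groups (log2 -0.51 in mip40 cells, -0.40 in mip120 cells, -0.41 in mip130 cells and -0.43 in the E2F2 library, with adjusted p from 0.00629 to 0.0301 by limma). Its mip40 call was lost without mip40 replicate 1 and its E2F2 call without any of 5 libraries, GFP replicate 2 and those of mip120 and mip130. CG8531, whose start lies 250 bp from that of Hsc70-5, rose in mip120 cells (0.77, 0.000714) and mip130 cells (0.51, 0.00445). Dip3, a neighbour of Hsf, stood above GFP cells in all 4 groups. It had 1.77 and 1.69 FPKM in mip40 cells and 3.90 and 4.36 FPKM in mip120 cells. Its values were 3.60 and 2.98 FPKM in mip130 cells, 6.96 FPKM in the E2F2 library and 0.325 and 0.595 FPKM in GFP cells. Dip3 reached 1 FPKM only in the RNAi libraries, so it entered the test through the groups in which it was high. As for Hsp26, its values are therefore a description with no p. Its mip40 call was lost without mip40 replicate 1 or GFP replicate 1, and with the mip40 and GFP libraries fitted alone. Pcl, on the other side of Hsf at 777 bp and a Polycomb-like gene, passed in none of the 4. The same held for CG14965 beside Hsp83, CkIIbeta and CG43154 beside Hsc70-3, and Hsp67Bb. The DNA damage kinase gene tefu, 451 bp from Hsc70-4, rose in mip130 cells (log2 0.28, adjusted p = 0.0226 by limma) and in the E2F2 library (0.38, 0.0374). The first call was lost without mip130 replicate 1 or either GFP library (up to 0.106) and the E2F2 call without any mip120, mip130 or GFP library (up to 0.0964). The strand setting of the counting is not given, so reads where opposite genes overlap cannot be told apart.

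Among the other heat shock genes, the heat-inducible Hsp70 copies were near the floor. Hsp70Bb had 2.64 and 3.51 FPKM in mip40 cells, 3.30 and 2.59 FPKM in mip120 cells, 3.40 and 3.01 FPKM in mip130 cells and 1.54 FPKM in the E2F2 library, against 2.11 and 2.23 FPKM in GFP cells, and it passed in no comparison with GFP. The 5 other Hsp70 copies stayed at or below 0.443 FPKM; the copies are nearly identical, so their split is uncertain. Of the 7 other small heat shock genes 2 were tested. CG14207, which RefSeq also lists as HspB8, fell in mip130 cells (log2 -0.53, adjusted p = 0.0159 by limma) and in the E2F2 library (-0.90, 0.0140). The mip130 call was lost without mip130 replicate 2 or GFP replicate 2, and with annotated transcripts alone neither call held (0.872 and 0.653).

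Hsc70Cb, the Hsp110 that recharges Hsp70 with ATP, rose in all 4 RNAi groups. It had 143 and 147 FPKM in mip40 cells, 129.7 and 118 FPKM in mip120 cells, 128 and 134 FPKM in mip130 cells and 144 FPKM in the E2F2 library, against 51.2 and 53.5 FPKM in GFP cells. All 7 RNAi libraries lay above both GFP libraries. The rises were 2.74-fold in mip40 cells, 2.34-fold in mip120 cells, 2.47-fold in mip130 cells and 2.71-fold in the E2F2 library, with adjusted p from 4.67e-05 to 0.000253 by limma, and only the E2F2 call was lost in any alternative, with the E2F2 and GFP libraries fitted alone (0.0593). Among the 10 genes of its list 3 were tested, and CG2918, the ER relative Grp170, rose in mip120 cells (log2 0.51, adjusted p = 0.00297 by limma).

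Most of the listed ER chaperones and genes of the unfolded protein response, which senses misfolded protein in the ER, passed as higher in mip120 cells, where Hsc70-3 rose. Of 11 such genes, all tested, 8 rose, 0 fell and 3 (Atf6, Cnx99A and Xbp1) did not pass in mip120 cells, where 17.6% of all tested genes rose, with a median log2 change of 0.41 against -0.04 over all tested genes. In mip130 cells 5 rose and 2 fell, where 19.3% of tested genes rose and 16.9% fell, with a median of 0.25 against 0.01. In mip40 cells 0 rose and 1 fell, where 5.69% rose and 3.51% fell, with a median of 0.05 against 0.01. In the E2F2 library 4 rose and 0 fell, where 9.28% rose and 2.72% fell, with a median of 0.21 against 0.08. Over the alternatives 5 to 9 of the genes were called in mip120 cells (5 without mip120 replicate 1 or GFP replicate 2), 0 to 8 in mip130 cells (0 without mip130 replicate 2 or GFP replicate 2), 0 to 2 in mip40 cells and 0 to 4 in the E2F2 library (1 without either GFP library).

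Herp, which helps dispose of ER proteins, had 6.93 and 8.76 FPKM in mip40 cells, 24.8 and 27.7 FPKM in mip120 cells, 10.1 and 9.95 FPKM in mip130 cells and 17.8 FPKM in the E2F2 library, against 11.4 and 10.99 FPKM in GFP cells. Its groups separated in both directions. It rose 2.23-fold in mip120 cells (log2 1.16 ± 0.11 SE, adjusted p = 0.000462 by limma) and in the E2F2 library (0.63, 0.0313), and fell in mip40 cells (-0.47, 0.0450). The mip120 call held in all 19 alternatives, the E2F2 call in 9 and the mip40 call in 6, both of these lost when any mip120, mip130 or GFP library was left out. In mip120 cells Gp93, the Hsp90 of the ER, rose (log2 0.70, adjusted p = 0.000494 by limma), as did calreticulin (Crc in the table, 0.64, 0.00313) and the stress sensors Ire1 (0.64, 0.000892) and PEK (0.53, 0.000663). Xbp1, the factor downstream of Ire1, did not pass there (log2 -0.24, adjusted p = 0.0930 by limma), and it fell in mip130 cells (-0.35, 0.0330). In mip130 cells ERp60 (0.43, 0.00963) and Pdi (0.39, 0.0302), which shape disulfide bonds, rose, whereas Cnx99A, a calnexin, fell (-0.57, 0.0224), but with annotated transcripts alone it passed as a rise (0.55, 0.0325). The ERp60 call was lost without mip130 replicate 2 or GFP replicate 2 (up to 0.0624), the Pdi call without any mip130 or GFP library (up to 0.138) and the Cnx99A call without either mip130 library or GFP replicate 2 (up to 0.0928).

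Of 12 Hsp70 co-chaperones, mrj, a J-domain protein, fell in all 4 groups (log2 -0.37 in mip40 cells, -0.35 in mip120 cells, -0.52 in mip130 cells and -0.35 in the E2F2 library). P58IPK, an ER J-domain protein, rose in mip120 cells (0.82, adjusted p = 0.000439 by limma) and in the E2F2 library (0.54, 0.0159), and the remaining 10 passed nowhere. The mrj call was lost in mip40 cells without mip40 replicate 1 or either GFP library and in the E2F2 library without either GFP library, and the P58IPK call in the E2F2 library without GFP replicate 2. In mip40 cells 0 of the list rose and 1 fell, where 5.69% of all tested genes rose and 3.51% fell. In mip120 cells 1 rose and 1 fell, where 17.6% rose and 18.9% fell. In mip130 cells 0 rose and 1 fell, where 19.3% rose and 16.9% fell. In the E2F2 library 1 rose and 1 fell, where 9.28% rose and 2.72% fell. The list's median log2 change was 0.01 in mip40 cells, 0.05 in mip120 cells, -0.0026 in mip130 cells and 0.11 in the E2F2 library. Over all tested genes these medians were 0.01, -0.04, 0.01 and 0.08. HIP and HIP-R are nearly identical copies and their values are uncertain.

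Of 9 Hsp90 co-chaperones 3 fell in mip120 cells, where 18.9% of all tested genes fell: Cdc37, which brings kinases to Hsp90 (log2 -0.35, adjusted p = 0.0190 by limma), Hop, which links Hsp70 to Hsp90 (-0.33, 0.00729), and CG1416, which RefSeq also lists as Aha1 (-0.31, 0.00860). In the same cells 0 rose, and the median was -0.19 against -0.04 over all tested genes. In mip40 cells 1 rose and 0 fell, where 5.69% of tested genes rose and 3.51% fell. In mip130 cells 1 rose and 1 fell, where 19.3% rose and 16.9% fell. In the E2F2 library 4 rose and 0 fell, where 9.28% rose and 2.72% fell. The list medians were 0.06, -0.08 and 0.13, against 0.01, 0.01 and 0.08 over all tested genes. The gene called in mip40 cells was Dpit47 (log2 0.30, adjusted p = 0.0462 by limma), whose call held in 5 of 19 alternatives. In mip130 cells CHORD (0.20, 0.0455) rose and Cdc37 (-0.45, 0.00821) fell, and 0 of the list were called without mip130 replicate 2 or GFP replicate 2. In the E2F2 library nudC (0.57, 0.00649), CHORD (0.39, 0.0248), Hop (0.32, 0.0425) and CG1416 (0.30, 0.0491) rose, and 1 of the list was called without GFP replicate 2 or either mip120 library and 0 with the E2F2 and GFP libraries fitted alone. In mip120 cells the Cdc37 call was lost without either mip120 library or GFP replicate 2 (up to 0.0984 by limma) and the CG1416 call without mip120 replicate 1 (0.0504), and over the alternatives 1 to 4 genes of the list were called there.

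Of 10 mitochondrial chaperone genes 7 were tested. Hsp60, the chaperonin of mitochondria, rose in mip40 cells (log2 0.36, adjusted p = 0.0213 by limma), mip120 cells (0.56, 0.00108) and mip130 cells (0.30, 0.0137). The mip120 call held in all 19 alternatives, the mip130 call was lost without mip130 replicate 1 or GFP replicate 1, and the mip40 call without mip40 replicate 2, either mip120 library or either GFP library. Over the list 1 rose and 1 fell in mip40 cells, where 5.69% of all tested genes rose and 3.51% fell. In mip120 cells 3 rose and 1 fell, where 17.6% rose and 18.9% fell. In mip130 cells 3 rose and 1 fell, where 19.3% rose and 16.9% fell. In the E2F2 library 0 rose and 1 fell, where 9.28% rose and 2.72% fell. The list medians were 0.16, 0.33, 0.24 and 0.01, against 0.01, -0.04, 0.01 and 0.08 over all tested genes. The gene that fell in all 4 groups was listed as l(2)tid, a symbol carried by 2 genes in the reference, so its identity is uncertain. Its mip40 call held in 12 and its E2F2 call in 11 of 19 alternatives, both being lost without GFP replicate 2 or either mip120 library, and 0 genes of the list were called in mip40 cells without any of those 3 libraries or mip40 replicate 2. The others called in mip120 cells were CG11779 (log2 0.66, adjusted p = 0.000793 by limma) and Roe1, a nucleotide exchange factor (0.59, 0.00223), and Roe1 also rose in mip130 cells (0.32, 0.0245), a call lost without mip130 replicate 1 or either GFP library. Of the 8 subunits of the cytosolic chaperonin TRiC, 0 passed in mip40 cells (median log2 change 0.06), 0 rose and 2 fell in mip120 cells (-0.07), 3 rose and 1 fell in mip130 cells (0.21) and 0 passed in the E2F2 library (0.11). Of all tested genes 5.69% rose and 3.51% fell in mip40 cells, and 17.6% rose and 18.9% fell in mip120 cells. In mip130 cells 19.3% rose and 16.9% fell, and in the E2F2 library 9.28% rose and 2.72% fell. The medians over all tested genes were 0.01, -0.04, 0.01 and 0.08. The 4 mip130 calls became 0 without mip130 replicate 2 or GFP replicate 2, and the 2 mip120 calls became 1 without any mip120 or GFP library. Besides Cctgamma the largest called changes were those of T-cp1 in mip120 cells (log2 -0.23, adjusted p = 0.0300 by limma) and of CG5525 (0.43, 0.01004) and Cct5 (0.37, 0.0109) in mip130 cells. Cctgamma fell in both mip120 cells (log2 -0.42, adjusted p = 0.00342 by limma) and mip130 cells (-0.28, 0.0177), the mip130 call being lost without any mip130 or GFP library (up to 0.0972).

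**Figure D4:**
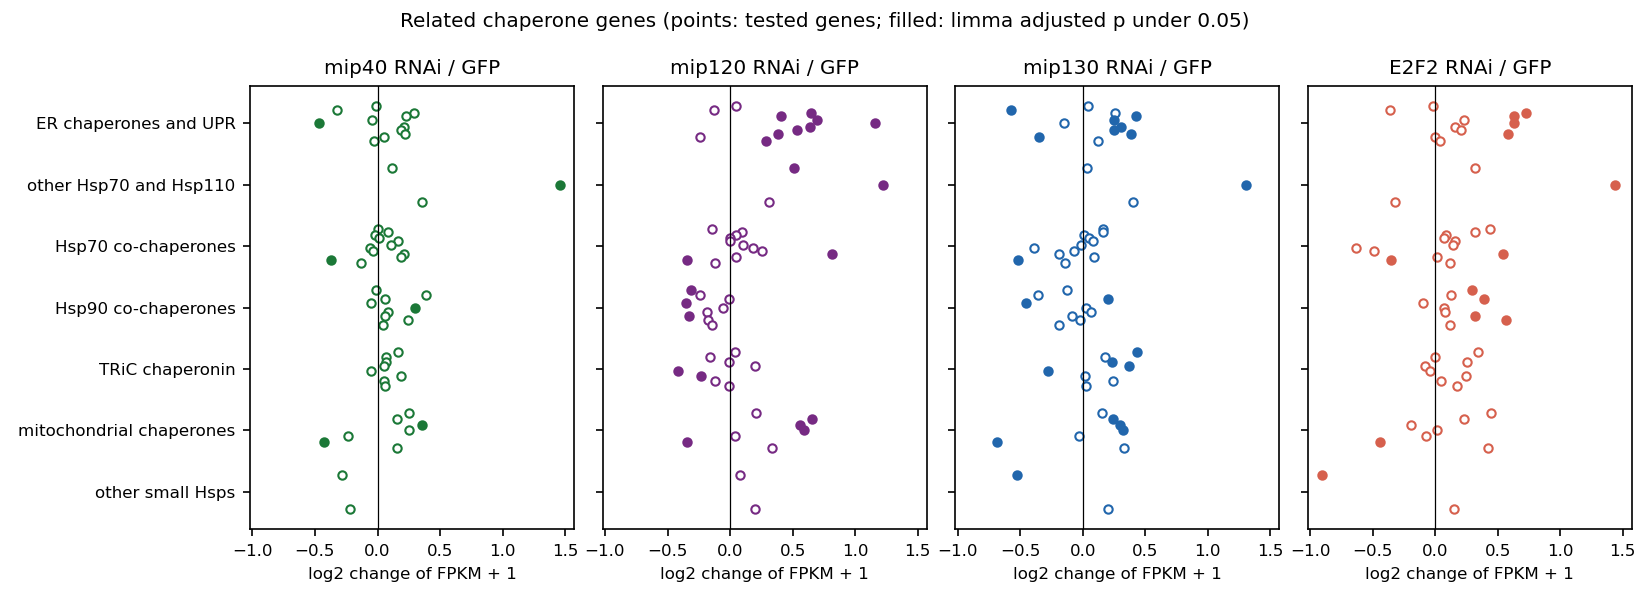
Log2 change of FPKM + 1 against GFP (horizontal axes) for the tested genes of 7 related chaperone lists (rows) in mip40, mip120, mip130 and E2F2 cells (panels). Each point is a gene, and filled points have a limma adjusted p under 0.05. Most ER points are filled right of 0 in mip120 cells, and the filled point near 1.5 in the second row of mip40 cells is Hsc70Cb, which lies right of 0 in every panel.

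Over the 9 libraries the members did not vary as 1 set. On log2(FPKM + 1), the member most like Hsp27 was Hsp68 (Pearson r = 0.935 over 9 libraries) and the least like it was Hsp22 (-0.777). Hsc70-3 was most like Hsp22 (0.823) and least like Hsp83 (-0.931). These correlations are descriptions over libraries of 5 groups, so they reflect the group differences given above. Of all tested genes, CG9154 (0.989), the autophagy kinase gene Atg1 (0.988) and Der-1, a derlin of the ER membrane (0.986), were most like Hsp22. The genes most like Hsp27 were CG9485 (0.984), CG5895 (0.977) and Spn27A (0.9749), those most like Hsp68 were Vhl (0.964), Ugt58Fa (0.960) and CG8281 (0.959), and those most like Hsc70-3 were CG14962 (0.978), CG12206 (0.970) and CG11188 (0.967). For Hsp26 they were CG3301, CG13084 and Rcd1 (0.988 to 0.991), for Hsp83 CG1637, nrv2 and CG10444 (0.973 to 0.974), and for Hsp23 the Jun homologue Jra (0.915), CG6218 (0.892) and CG34041 (0.872). The genes most like Hsc70-4 were gatA, CG4619 and CG1667 (0.929 to 0.984), those most like Hsc70-5 CG6745, CG17803 and Acsl (0.925 to 0.945), and those most like Hsf CG1598, CG1550 and CG17683 (0.957 to 0.967).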

How the data were processed

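RNA selected with oligo-dT was sequenced as pairs of 100 bp reads, per the labels' protocols. The authors deposited FPKM for 37161 transcripts in 9 library columns. Per the submitters' processing notes the tools were TopHat2 2.0.12, Bowtie 1.1.1, Cuffnorm and Cufflinks; the labels state neither build and annotation release nor strand setting. The 4 columns of group means in the deposited table were left out, and the 9 digested chromatin samples and 1 naked DNA sample were not analysed here. FPKM of annotated transcripts, new isoforms and other overlaps were summed per gene. Genes with at least 1 FPKM in at least 2 libraries (7835) were compared on log2(FPKM + 1), using limma 3.58.1 (R 4.3.3) with 1 model of 5 groups, a prior variance that followed the mean level, and p-values adjusted by Benjamini-Hochberg at 0.05 per comparison. The model had 4 residual and 2.77 prior degrees of freedom, and its code was tested on simulated data. The spread behind the p-values is that among these libraries and may be technical. The members, the 7 related lists and the tests were chosen with earlier results of these data known. All members were named, as were up to 3 called genes per list and comparison, other genes of the lists being chosen after their values were seen, the 3 genes most like each member, and each member's nearest neighbours where these were tested. Replicate numbers were not treated as pairs.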

Additional observations from a re-analysis of the deposited data

How the results depend on the processing

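The alternatives changed the pseudocount, filter, transcript classes, scaling, variance prior, libraries fitted or replicate block, or left out 1 library other than that of E2F2. The 1026 member values under them cover all members against GFP. Between RNAi groups they cover only members that passed as reported or in an alternative, so sign changes of the others are not counted. Of these values 989 kept their direction and side of the threshold, 14 lost the call, 8 gained it and 15 changed sign. No member called in a comparison changed sign. Counts of members called here include Hsp26, whose calls the filter fixed. The members called in mip40 cells against GFP numbered 1 to 2 with a library left out. In mip130 against mip40 cells they numbered 1 without a filter, 1 with only the groups compared, and 1 to 2 with a library left out. In mip130 against mip120 cells they numbered 0 to 2 with a library left out, 0 without mip130 replicate 2. In the E2F2 library against GFP 1 member was called with annotated transcripts alone. It was Hsp83, whose new isoform of 456 FPKM is then not summed, which leaves 485 FPKM of 942. The causes of the other changes in these counts were not tested. Signs changed for small differences: Hsf in mip40 cells (-0.0233 to 0.14 with a library left out) and mip120 cells (-0.0148 with annotated transcripts alone, -0.0035 to 0.13 with a library left out), Hsc70-4 in mip120 cells (0.0119 with median-ratio scaling, -0.0499 to 0.00069 with a library left out), Hsp23 in mip130 cells (-0.0291 with quantile normalization, -0.157 to 0.34 with a library left out), and in the E2F2 library Hsp68 (-0.0484 with quantile normalization, -0.0447 with median-ratio scaling, -0.0264 to 0.11 with a library left out) and Hsc70-4 (-0.148 and -0.0219 with those scalings). Hsp83 in the E2F2 library against the mip groups became -0.79, and Cnx99A in mip130 cells 0.55, with annotated transcripts alone, both then passing. For the related and neighbouring genes 1004 values were unchanged in call, 211 lost it and 1 changed sign.

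With the replicate number as a block, the members called numbered 2, 6, 4 and 0 in mip40, mip120, mip130 and E2F2 cells against GFP, 3, 2 and 2 between the mip groups and 5 in the E2F2 library against the mip groups, where Hsp23 was added. The correlations of replicate differences between groups ran from -0.135 to 0.021, so no large effect shared by equal replicate numbers was seen. Such correlations cannot show whether libraries of equal number were made together.

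All genes called ranged over the alternatives from 188 to 792 in mip40 cells (721 as reported), 1581 to 2981 in mip120 cells (2857), 1426 to 3010 in mip130 cells (2840) and 31 to 1029 in the E2F2 library (940), and from 516 to 2000 for mip120 against mip40 (2001), 198 to 2125 for mip130 against mip40 (1956), 71 to 802 for mip130 against mip120 (652) and 1472 to 2314 for E2F2 against the mip groups (2289). With median-ratio scaling the genes called higher, as a share of all called, were 54.0% for mip120 against mip40 (43.8% as reported), 47.6% for mip130 against mip120 (59.4%) and 47.7% for E2F2 against the mip groups (66.7%, or 52.9% with quantile normalization). Read depth is unknown, and no count test was possible.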
